A study of Mus musculus with 9 samples.

Results

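The second shRNA against *Tmprss11b*, named sh3 in the labels and shRNA2 in the study, was compared with the control shRNA in 6 of the 9 tumors of the series. All genes were taken, with no choice by their values: 3 sh3 tumors were set against 3 control tumors, and the remaining 3 tumors carried the first shRNA (sh2). *Tmprss11b* encodes a serine protease anchored in the cell membrane, and the comparison asks which genes other than keratins differ in tumors in which it is silenced.

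KLN205 is a line of mouse lung squamous cell carcinoma (LUSC). Its cells, carrying a doxycycline-inducible SMART vector with either sh Control or sh3 *Tmprss11b*, were grown under the skin of wild-type DBA/2 mice, which have an intact immune system. The mice were females of 6 to 8 weeks at injection. Mice of every group received doxycycline in the drinking water once the mean tumor volume had reached 100 mm3. The controls thus share the drug and differ in the hairpin, and tumors were taken at day 50 after injection. The study reports impaired tumor growth with *Tmprss11b* shRNA. Tumor size and the hairpin therefore cannot be told apart here. The shRNA acts only in the injected carcinoma cells, while the RNA was taken from a piece of whole tumor with the stroma, vessels, immune cells and surrounding tissue of the host. Fewer cells of a type and less RNA per cell therefore cannot be told apart in any value given here.

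Squamous carcinomas grow as nests of epithelial cells in a stroma. Fibroblasts of this stroma secrete the fibrillar collagens and the enzymes that crosslink and cut them, endothelial cells and pericytes build the vessels, and macrophages, T cells and B cells enter from the blood. Under the skin, fat, muscle and nerve lie next to the tumor and can be part of a dissected piece.

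Total counts were between 20653219 and 24047784 per tumor. Levels are in CPM, each gene's counts scaled to the effective library size (TMM). In these units 3 counts, used as the floor, were worth 0.123 to 0.149 CPM, and the floor covers counting error only. The epithelial markers *Epcam* (649 to 973 CPM), *Cdh1* (230 to 374 CPM), *Krt8* (701 to 1247 CPM) and *Krt18* (648 to 1086 CPM) were high in all 6 tumors. The squamous marker *Trp63* was between 0.370 and 6.96 CPM, and *Krt5* was at 87.6 CPM in control tumor 1 and at or below 0.576 CPM in the other 5 tumors. The basal keratin *Krt14* was present in all 6 tumors, at 390.5, 169 and 72.1 CPM in the controls and 12.3, 118 and 185 CPM with sh3. Sh3 tumor 1 stood apart from the rest. Of the 13604 genes that averaged 1 CPM or more, 454 were more than 2-fold lower in it than in any other tumor on the log2(CPM + 1) scale, compared with at most 30 in any other tumor. It had the lowest level of 19 of 22 interferon response genes, 13 of 18 macrophage and monocyte genes and 8 of 9 genes of MHC class II presentation. Over all of the 13604 genes it was the lowest in 4040. Results that rest on this tumor are given with and without it.

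*Tmprss11b*, listed under its older symbol *Tmprss11bnl* (chr5:86659522-86676298 in mm10), gave 18, 51 and 42 counts in control tumors 1 to 3. The same gene gave 10, 4 and 5 counts in sh3 tumors 1 to 3. The 2 groups did not overlap: the mean was 1.54 ± 0.701 CPM (SD, n = 3) in the controls and 0.292 ± 0.147 CPM (SD, n = 3) with sh3. The ratio of the summed counts was 0.189, with a 95% interval of 0.110 to 0.309 from counting error alone. The log2 fold change was −2.38 (SE 0.58), with an adjusted p of 0.924 from edgeR's quasi-likelihood test. An exact two-sided permutation test gave p = 0.1, the smallest that 3 tumors against 3 allow.

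No gene passed the threshold in this comparison. Of 14483 genes tested with edgeR's quasi-likelihood test and Benjamini-Hochberg adjustment, 0 had an adjusted p (FDR) under 0.05, and the lowest FDR was 0.924. An unadjusted p under 0.05 was found for 756 genes (5.22%), 305 with higher and 451 with lower levels with sh3. In 882 genes (6.09%) all 3 sh3 tumors lay above the 3 controls, and in 865 genes (5.97%) all lay below them. DESeq2's Wald test called 45 genes (0.311%), 9 higher and 36 lower, and edgeR's likelihood ratio test called 20 (0.138%), 3 higher and 17 lower, of which 19 were shared. The differences below are therefore values of these 6 tumors, of which none is a call of the quasi-likelihood test, and p without the word adjusted is the unadjusted value from that test.

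The lists with the lowest medians were the cornified envelope, adipocytes, skeletal muscle, erythrocytes and the collagens, and those with the highest were B cells, ribosomal proteins, snoRNA host genes and T cells. The median log2 fold change of all genes tested was 0.02. The medians have no test.

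**Figure D1:**
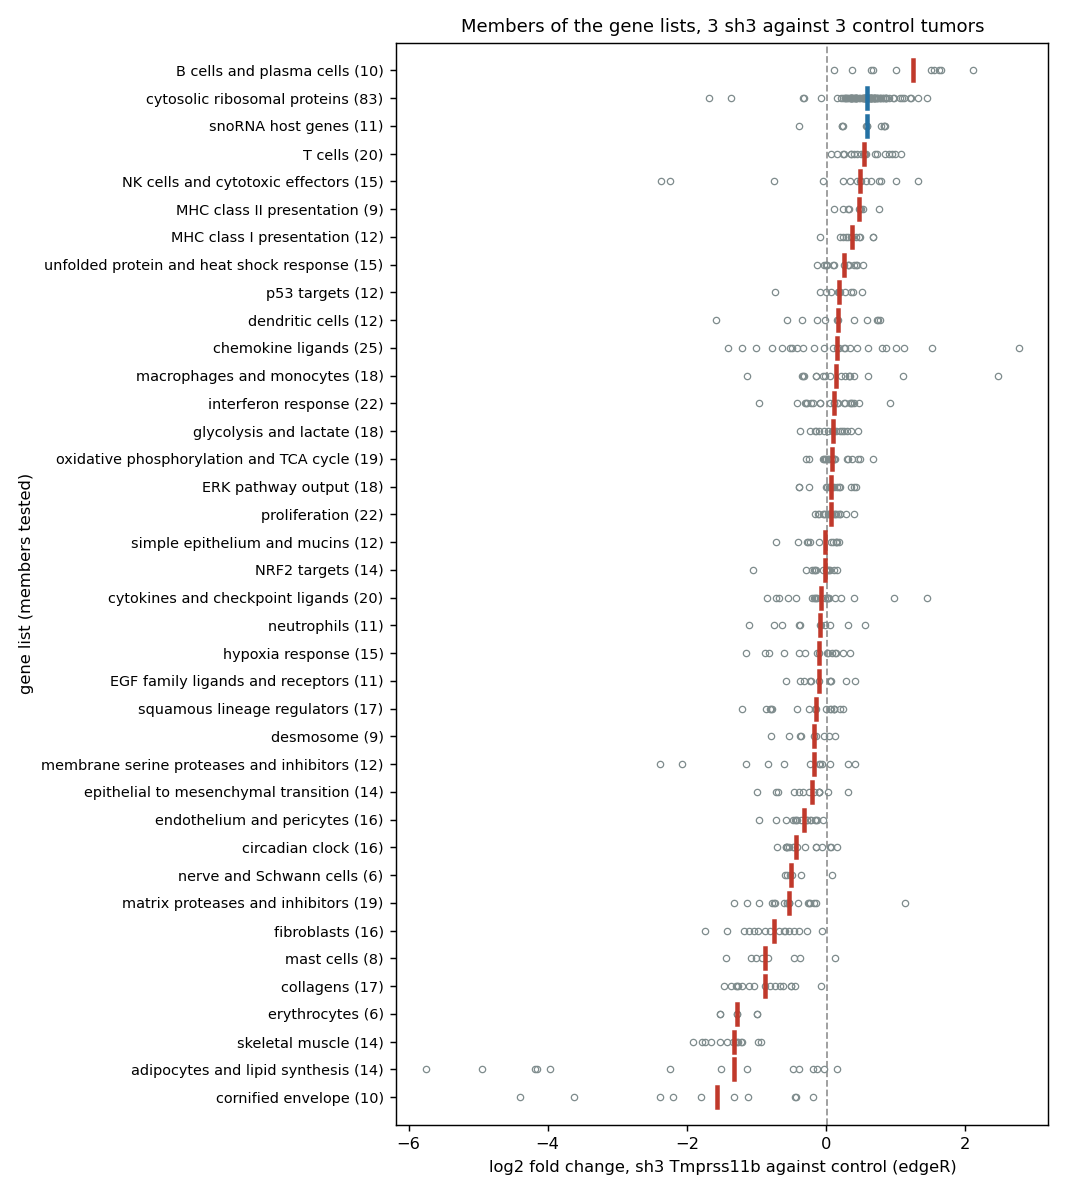
Log2 fold change of sh3 against control tumors (x axis, edgeR) for the tested members of each gene list (y axis, number of members tested in brackets). Circles are genes, thick bars are list medians (red for lists drawn up with the design, blue for the lists of ribosomal protein and snoRNA host genes, which were added after values were seen), and the dashed line is the median of all genes, 0.02. All 17 collagens lie left of 0 and all 20 T cell genes lie right of it.

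Collagens are the main protein of the tumor matrix. *Col1a2*, a chain of type I collagen (chr6:4505618-4541543), was at 1709, 1098 and 1187 CPM in control tumors 1 to 3 and at 508, 693 and 431 CPM in sh3 tumors 1 to 3. Its highest sh3 tumor lay well below its lowest control, though separate groups were a condition of the choice of this gene. The log2 fold change was −1.29 (SE 0.26). *Col1a1*, the partner chain, was at 1874, 1002 and 1041 CPM in the controls and 450, 659 and 517 CPM with sh3, so that these groups did not overlap either. Per length, *Col1a2* averaged 612 TPM in the control and 220 TPM in the sh3 tumors, against 54.6 and 22.3 TPM for *Col5a1*, which regulates the width of collagen fibrils.

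The difference was shared by chains that build different kinds of matrix. Of the 17 collagens tested, 17 had a lower mean with sh3 and in 14 all sh3 tumors lay below all controls, where 5.97% of all genes did so. An unadjusted p under 0.05 was found for 12 lower collagens and for 0 higher ones, where 3.11% of all genes were in the lower class. The median log2 fold change was −0.88. *Col6a1* and *Col6a2*, chains of the microfibrils of type VI collagen, had log2 fold changes of −1.28 (SE 0.28) and −1.37 (SE 0.30). *Col6a2* was at 283, 153 and 142 CPM in the controls and at 86.1, 79.3 and 58.5 CPM with sh3. *Col4a1* and *Col4a2*, which form the sheet of basement membranes, differed less, by −0.50 (SE 0.20) and −0.61 (SE 0.22). *Col7a1*, the anchoring fibril made by squamous epithelium, had a log2 fold change of −0.07 (SE 0.67): it was at 579 CPM in sh3 tumor 1 and at 145 and 109 CPM in the other sh3 tumors.

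**Figure D2:**
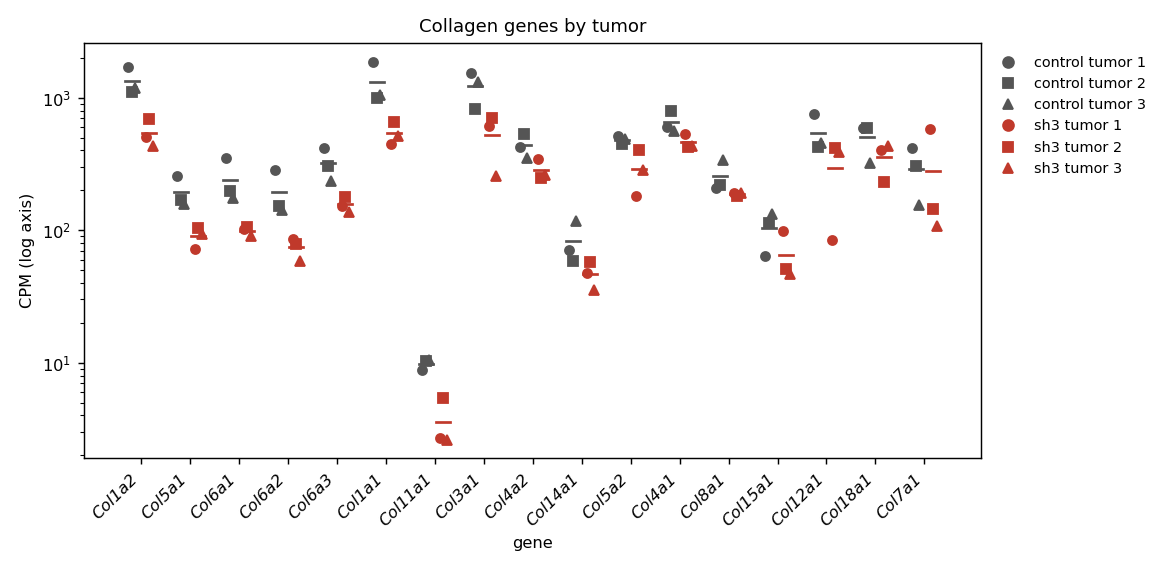
Level of the 17 collagen genes tested (CPM, log axis) in each tumor, grey for control and red for sh3, with a symbol for each tumor and lines at the group means, ordered by p. From *Col1a2* to *Col8a1* the sh3 tumors lie below the controls, while *Col15a1*, *Col18a1* and *Col7a1* overlap.

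DESeq2's Wald test called 7 of the collagens (*Col1a1*, *Col1a2*, *Col5a1*, *Col6a1*, *Col6a2*, *Col6a3* and *Col11a1*), and the likelihood ratio test called 4 of them. Without sh3 tumor 1 the median of the list was −1.01 with 13 lower genes at p under 0.05 (6.92% of all genes), and over the 6 fits that leave out 1 tumor it was between −1.14 and −0.85. Collagen transcripts are long, with 14 of 17 in the 2 longest of 10 length classes, and with the length trend of each tumor removed the median was −0.71, with 10 lower genes at p under 0.05.

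Genes that assemble, crosslink and take up collagen were among the genes with the smallest p. *Loxl3*, a lysyl oxidase that crosslinks collagen and elastin, was at 59.9, 59.0 and 60.8 CPM in the controls and at 31.8, 40.0005 and 30.6 CPM with sh3. The 3 controls were nearly equal and every sh3 tumor lay below them, though separate groups were a condition of the choice of this gene. *Fbn1*, fibrillin of the elastic microfibrils, had a log2 fold change of −0.78 (SE 0.16). *Mrc2*, a receptor through which fibroblasts take up collagen, had −0.92 (SE 0.20).

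The 15 lower genes chosen for small p and separate groups also held *Lamb2* and *Nid1*, of the basement membrane. No list of basement membrane genes was drawn up. *Lamb2*, a laminin chain, was at 149.96, 131 and 155 CPM in the controls and 93.7, 84.4 and 84.1 CPM with sh3, a log2 fold change of −0.73 (SE 0.14). *Nid1*, which links laminin to type IV collagen, was at 133, 125 and 149 CPM against 87.6, 92.6 and 79.2 CPM. Separate groups were a condition of the choice of both genes. The spread within a group was smaller than the gap between the groups.

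Fibroblast markers lay in the same direction with more spread. All 16 had a lower mean with sh3 (median log2 fold change −0.74), with p under 0.05 in 5 (3.11% of all genes), and in 2 the sh3 tumors lay below all controls (5.97% of all genes). Without control tumor 1, 0 of them had p under 0.05 and the median was −0.54. Over all genes, 344 had p under 0.05 in that fit, against 756 with all tumors. *Pdgfrb*, a receptor of fibroblasts and pericytes, was at 145, 125 and 128 CPM in the controls and at 64.2, 109 and 76.0 CPM with sh3. *Fbln1*, a matrix glycoprotein, had a log2 fold change of −1.04 (SE 0.35). The summed level of the list was 1292 to 1907 CPM in the controls and 705 to 1311 CPM with sh3, so that these ranges overlapped. Its part in the collagen result was not tested.

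Among matrix proteases, the ADAMTS family, which cuts procollagens and proteoglycans, accounted for the 4 genes with p under 0.05, all lower (3.11% of all genes). In 3 of the 19 genes of the list all sh3 tumors lay below all controls (5.97% of all genes). *Adamts12* was at 24.4, 25.2 and 28.6 CPM in the controls and 4.71, 15.7 and 10.96 CPM with sh3. Of the 19 genes in this list, 18 had a lower mean with sh3, and the exception was the macrophage elastase *Mmp12*, at 56.1, 83.1 and 36.3 CPM against 185, 178 and 22.4 CPM. Its sh3 tumor 3 was the lowest of the 6 and the other sh3 tumors were the highest.

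Regulators of mesenchymal state overlapped with this group. *Prrx1*, a transcription factor of mesenchyme, was at 66.4, 60.9 and 60.1 CPM against 30.6, 48.8 and 34.4 CPM (log2 fold change −0.72, SE 0.20). *Itga5*, the fibronectin receptor subunit, was at 72.4, 74.3 and 61.9 CPM against 52.9, 49.6 and 49.2 CPM. The groups did not overlap in either gene. Among transcription factors of epithelial to mesenchymal transition itself, *Twist1* had a log2 fold change of 0.31 (SE 0.20). The others were lower: *Snai1* −0.33 (SE 0.30), *Snai2* −0.10 (SE 0.22), *Zeb1* −0.18 (SE 0.30), *Zeb2* −0.10 (SE 0.36) and *Twist2* −0.99 (SE 0.88). None of these factors had p under 0.05. Of the 14 genes of this list, 12 had a lower mean with sh3, 3 of them with p under 0.05 (3.11% of all genes). In 2 all sh3 tumors lay below all controls (5.97% of all genes).

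Among the 15 lower genes with the smallest p and separate groups were *Slit3*, *Srgap3*, *Epha3* and *Aplnr*. *Slit3*, a secreted ligand of ROBO receptors (chr11:35121456-35708507), was at 58.4, 42.8 and 40.2 CPM in the controls and 18.8, 21.9 and 21.1 CPM with sh3, a log2 fold change of −1.19 (SE 0.19). The sh3 tumors were close to each other, and all lay well below the lowest control. *Srgap3*, a GTPase-activating protein that acts downstream of SLIT and ROBO, was at 56.9, 66.4 and 69.0 CPM against 37.1, 31.8 and 38.2 CPM. *Epha3*, an ephrin receptor, had a log2 fold change of −2.07 (SE 0.43).

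*Aplnr*, the apelin receptor of endothelial cells, was at 32.1, 20.9 and 24.3 CPM in the controls and 11.6, 12.6 and 13.2 CPM with sh3. The list of endothelial and pericyte genes as a whole was closer to the control, with 16 of 16 means lower, a median of −0.32 and 2 genes at p under 0.05 (3.11% of all genes). These were *Tek*, the angiopoietin receptor, with a log2 fold change of −0.96 (SE 0.31), and *Cdh5*, the cadherin of endothelial junctions, with −0.42 (SE 0.18). *Pecam1*, a general endothelial marker, was at 81.0 to 107 CPM in the controls and 57.4 to 94.0 CPM with sh3.

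Several adipocyte genes were close to 0 in the sh3 tumors. *Adipoq*, the adipocyte hormone adiponectin, was at 1.75, 4.10 and 3.79 CPM in the controls and at 0.370, 0.149 and 0 CPM with sh3. *Retn*, resistin, had 80 counts over the 3 controls and 1 over the 3 sh3 tumors, a ratio of 0.0138 with a 95% counting interval of 0.000345 to 0.0791. *Plin1*, the coat protein of fat droplets, had 80 and 2 counts, a ratio of 0.0276 (0.00328 to 0.103). Both genes were under the floor of 3 counts in every sh3 tumor, so their level there was not detectable at this depth.

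More abundant genes of fat showed the same order. *Cfd*, adipsin, was at 16.6, 38.2 and 25.2 CPM in the controls and at 3.60, 1.24 and 0.259 CPM with sh3 (log2 fold change −3.97, SE 0.82). *Thrsp*, a regulator of lipid synthesis, had 351 and 17 summed counts, and *Cyp2e1*, a cytochrome P450 of liver and fat (chr7:140763819-140774990), had 177 and 8, a ratio of 0.0499 (0.0212 to 0.1004). *Retn* and *Cyp2e1* had the smallest p of all genes tested, and the log2 fold change of *Cyp2e1* was −4.26 (SE 0.63). In *Cfd*, *Thrsp* and *Cyp2e1* every sh3 tumor was below every control, which was a condition of their choice.

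In the list of adipocyte and lipid synthesis genes, 7 of 14 lay below all controls with sh3 (5.97% of all genes), and the same 7 had p under 0.05 (3.11% of all genes). The members that any cell can use to make fatty acids did not follow: *Fasn* was at 237 to 266 CPM in the controls and 447, 172 and 233 CPM with sh3, and *Acly* had a log2 fold change of −0.03 (SE 0.16). The list's median was −1.33. It was −0.29 when only genes with at least 10 counts in every tumor were kept, since this removes the fat cell genes near 0 in the sh3 tumors. *Retn* and *Plin1* were under the floor in every sh3 tumor while *Cfd* was above it in every one, and the part of fat cell RNA in other results was not tested.

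**Figure D3:**
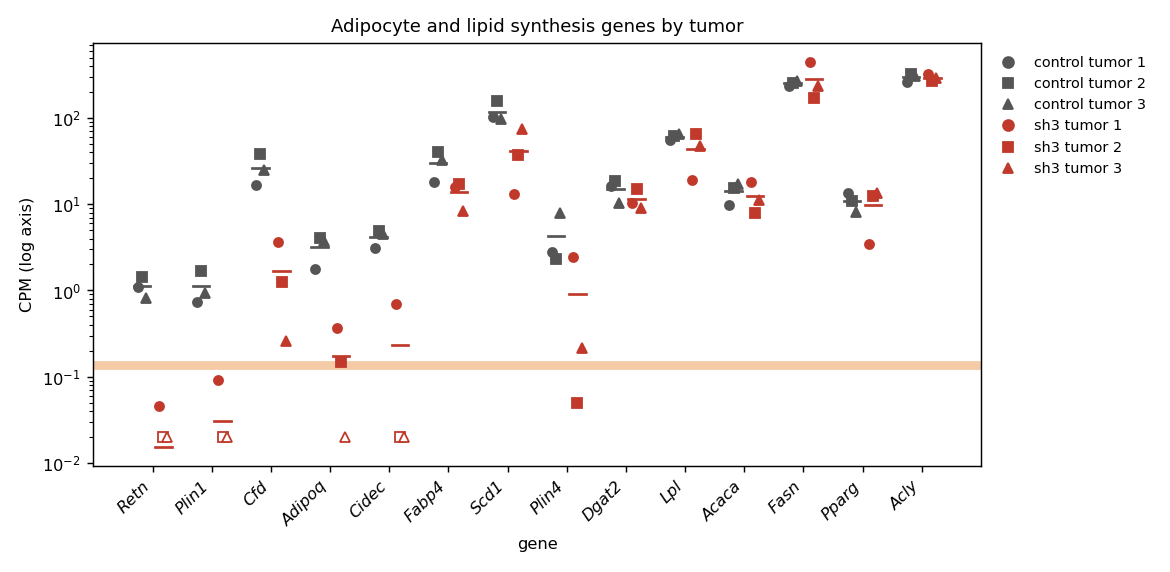
Level of the 14 adipocyte and lipid synthesis genes tested (CPM, log axis) in each tumor, grey for control and red for sh3, with lines at the group means and the floor of 3 counts (0.123 to 0.149 CPM) as a band. Open symbols at the bottom are tumors with 0 counts. *Retn*, *Plin1*, *Cfd*, *Adipoq* and *Cidec* are lower in every sh3 tumor, while *Fasn* and *Acly* overlap.

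The sh2 tumors, which share these controls, gave side by side values that were split. *Cfd* was at 0.295, 0.386 and 29.2 CPM in sh2 tumors 1 to 3, and *Adipoq* at 0.0421, 0 and 3.504 CPM. Sh2 tumor 3 was thus like the controls in these genes and sh2 tumors 1 and 2 were at or near the floor. The direct comparison of sh3 with sh2 gave a log2 difference of −2.75 (SE 1.65, adjusted p = 0.7003 from edgeR) for *Adipoq*.

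Markers of other tissue around the tumor varied without such an order, except for those of blood. The summed level of 14 skeletal muscle genes was 504, 41.3 and 4241 CPM in control tumors 1 to 3 and 1406, 132 and 230 CPM in sh3 tumors 1 to 3. Muscle RNA was thus highest in control tumor 3 and lowest in control tumor 2, with no separation of the groups. Hemoglobin genes were lower in every sh3 tumor: *Hbb-b1* was at 15.03, 10.2 and 19.1 CPM in the controls and 6.70, 7.36 and 4.19 CPM with sh3. The 6 globin entries tested hold 3 different sets of counts, since near-identical copies have the same values in every tumor, so they are not 6 measurements. The red cell marker *Slc4a1* was at 0.0412 CPM or less in every tumor, so the difference rests on globin RNA, and its part in other results was not tested.

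Clock genes formed a further group with little spread. *Tef*, a clock-controlled transcription factor, was at 70.9, 70.8 and 66.9 CPM in the controls and 49.5, 43.6 and 46.4 CPM with sh3 (log2 fold change −0.58, SE 0.13). *Per2*, a repressor of the clock, was at 17.8, 21.2 and 23.9 CPM against 11.8, 11.4 and 15.3 CPM, and *Nr1d1*, a nuclear receptor of the clock, at 73.9, 70.4 and 57.2 CPM against 48.0, 38.1 and 49.0 CPM. The groups did not overlap in any of the 3 genes.

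Of the 16 clock genes, 5 were lower with p under 0.05 (3.11% of all genes) and 0 were higher, and the same 5 lay below all controls (5.97% of all genes). The others were *Bhlhe41* and *Cry2*, also repressors. The activators *Arntl* and *Clock* had log2 fold changes of 0.07 (SE 0.18) and −0.14 (SE 0.23), and the repressor *Cry1* had 0.16 (SE 0.21). The median was −0.43, and −0.24 without sh3 tumor 3. The hour at which each tumor was taken is not given in the sources used here. In the sh2 tumors *Per2* was at 23.5, 31.6 and 20.7 CPM and *Nr1d1* at 41.4, 42.6 and 35.7 CPM. Sh3 and sh2 differed by −0.97 (SE 0.21, adjusted p = 0.673 from edgeR) in *Per2* and by 0.18 (SE 0.15, adjusted p = 0.779) in *Nr1d1*.

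Granzymes gave values in opposite directions within a single family of cytotoxic proteases. *Gzme* and *Gzmd*, which lie side by side on chr14, were at 32.9, 18.5 and 13.3 CPM and at 22.8, 12.3 and 6.71 CPM in the controls. With sh3 they were at 1.39, 4.33 and 7.94 CPM and at 0.739, 3.58 and 3.75 CPM, so every sh3 tumor was below every control. *Gzma*, a granzyme of T and NK cells, was at 2.95, 4.81 and 6.01 CPM in the controls and at 6.56, 17.2 and 10.8 CPM with sh3, above every control (log2 fold change 1.33, SE 0.43). *Gzmb* overlapped between the groups, with a log2 fold change of 0.75 (SE 0.41). *Gzmc* to *Gzmg* are close relatives, and reads could be split between such copies.

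T cell genes had a higher mean with sh3 in 20 of 20 cases, with a median log2 fold change of 0.54. *Il2ra*, the high-affinity IL-2 receptor chain of activated and regulatory T cells, was at 1.71, 2.34 and 2.14 CPM in the controls and 3.65, 5.07 and 4.32 CPM with sh3. *Icos* and *Ctla4*, a costimulatory and an inhibitory receptor, had log2 fold changes of 0.91 (SE 0.30) and 0.99 (SE 0.36). In 5 of the 20 genes the groups did not overlap (6.09% of all genes), and 5 had p under 0.05 (2.11% of all genes). *Foxp3*, the factor of regulatory T cells, was at 2.43, 1.67 and 2.43 CPM against 2.82, 4.03 and 2.85 CPM.

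Sh3 tumor 1 was the lowest of the 6 tumors in 10 of the 20 T cell genes, against 4040 of the 13604 genes that averaged 1 CPM or more. Sh3 tumors 2 and 3 lay above all controls in 17 of the 20, against 2660 of those 13604 genes. *Cd3g*, a chain of the T cell receptor complex, was at 15.4, 18.03 and 18.1 CPM in the controls and at 10.7, 33.2 and 39.9 CPM with sh3. Without sh3 tumor 1 the median was 0.82, and 14 genes had p under 0.05, where 9.05% of all genes were higher with p under 0.05. Without sh3 tumor 3 the median was 0.29, and 1 gene was higher and 1 lower at p under 0.05. Over all genes, 344 to 2354 had p under 0.05 in the fits with 1 tumor left out. The summed level was 151 to 196 CPM in the controls and 127, 260 and 327 CPM in sh3 tumors 1 to 3.

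All 10 B cell and plasma cell genes tested had a higher mean with sh3 (median log2 fold change 1.26). Without sh3 tumor 2 the median was 0.50. Most were at a few CPM, apart from *Xbp1*, a factor of plasma cells and of the unfolded protein response, at 184 to 277 CPM in the controls and 188 to 272 CPM with sh3. *Cd79a*, a part of the B cell receptor, was at 0.768, 0.293 and 1.03 CPM in the controls and 2.26, 2.79 and 1.42 CPM with sh3. *Pou2af1*, a coactivator of B cells, was at 1.45, 0.418 and 1.19 CPM against 2.82, 4.63 and 2.24 CPM. Both were separate between the groups, and 3 of the 10 genes lay above all controls (6.09% of all genes). Sh3 tumor 1 was not the lowest of the sh3 tumors in *Cd79a* or *Pou2af1*. The defining marker *Pax5* was at 0.462 CPM or less in every tumor.

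Antigen presentation and the interferon response followed sh3 tumor 1 more than the group. *H2-Aa*, a class II chain, was at 1216, 1219 and 1301 CPM in the controls and at 520.1, 2669 and 2231 CPM in sh3 tumors 1 to 3. The controls were nearly equal, and the sh3 tumors lay on both sides of them. All 9 class II genes had a higher mean with sh3, with 0 at p under 0.05 (5.22% of all genes) and a median of 0.47. Without sh3 tumor 1, 8 had p under 0.05, where 9.05% of all genes were higher at this p, and the median was 0.90. Without sh3 tumor 2 it was 0.080, and without sh3 tumor 3 it was 0.18. *Psmb8*, a subunit of the immunoproteasome that cuts peptides for class I, was at 251, 332 and 344 CPM against 261, 507 and 713 CPM. In the interferon response, 0 of 22 genes had p under 0.05 (5.22% of all genes). The median was 0.12 with all tumors, 0.41 without sh3 tumor 1 and −0.60 without sh3 tumor 3.

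**Figure D4:**
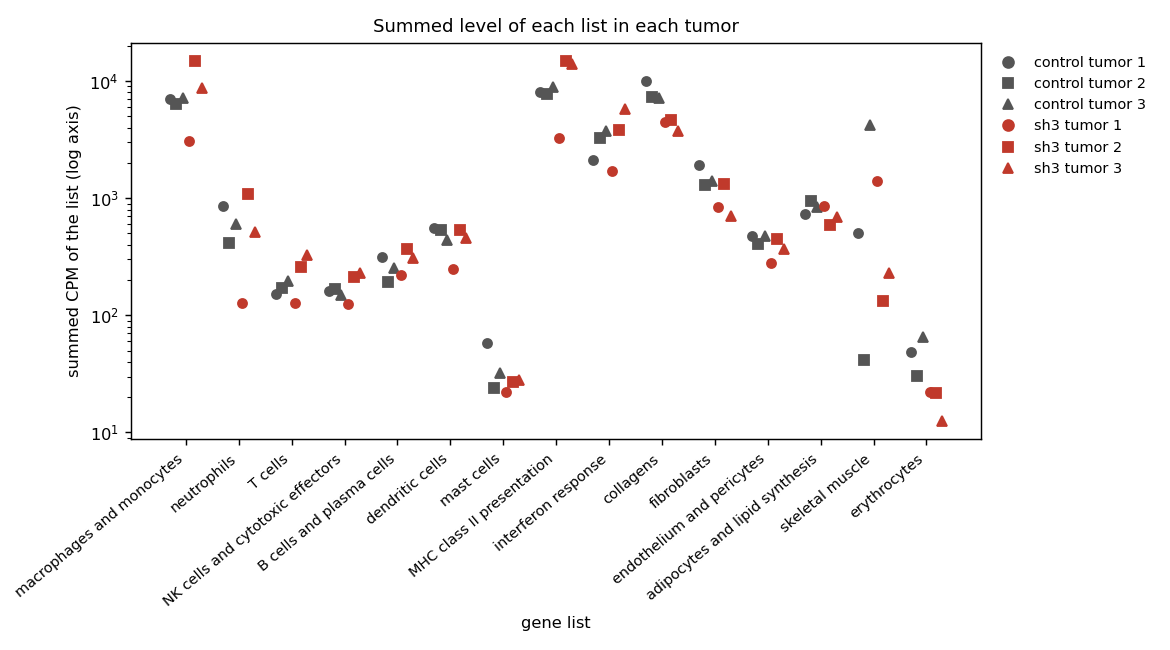
Summed level (CPM, log axis) of the genes of 15 lists in each of the 6 tumors, grey for control and red for sh3, with a symbol for each tumor. Sh3 tumor 1 (red circle) is the lowest in the macrophage, neutrophil, T cell, MHC class II and interferon lists, while all 3 sh3 tumors lie below the controls for collagens (3767 to 4680 against 7171 to 10084 CPM) and erythrocytes (12.5 to 22.2 against 30.5 to 65.3 CPM).

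Myeloid genes differed between the sh3 tumors more than between the groups. *Apoe*, a lipid carrier made by macrophages, was at 2432 to 2904 CPM in the controls and at 583, 6626 and 3623 CPM in sh3 tumors 1 to 3. *Ly6c2*, a marker of inflammatory monocytes, was at 57.5, 24.6 and 56.3 CPM against 581, 47.7 and 142 CPM (log2 fold change 2.48, SE 0.86), with sh3 tumor 1 the highest. None of the 18 macrophage and 11 neutrophil genes was separate between the groups, where 6.09% of all genes lay above and 5.97% below all controls. Mast cell proteases were lower with sh3, with *Mcpt4* at 5.98, 3.05 and 3.87 CPM against 2.63, 1.44 and 0.690 CPM. The list's median of −0.88 rested on control tumor 1, and it was −0.07 without it.

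Among signals between these cells, *Cxcl1*, a neutrophil-attracting chemokine, was at 71.1, 34.4 and 44.7 CPM in the controls and at 22.1, 24.5 and 28.3 CPM with sh3 (log2 fold change −1.002, SE 0.28). Its neighbor *Cxcl2* had a log2 fold change of −1.21 (SE 0.47) and overlapped. *Ccl22*, a ligand of CCR4 made by dendritic cells and macrophages, was at 7.09, 7.11 and 8.36 CPM against 9.15, 16.7 and 12.9 CPM. *Nt5e*, the enzyme CD73 that makes adenosine, was at 92.2, 111 and 77.3 CPM against 35.8, 46.5 and 73.3 CPM. In *Cxcl1*, *Ccl22* and *Nt5e*, which come from 3 different lists, the groups were separate. Of all genes, 6.09% lay above and 5.97% below all controls. In the chemokine ligand list, 1 of 25 lay above and 1 below, and of 12 dendritic cell genes 1 lay above. Of 20 cytokine and checkpoint ligand genes, 0 lay above and 1 below. Over the 25 genes of the chemokine ligand list, which does not hold *Ccl22*, the median was 0.16. At p under 0.05, *Xcl1* was higher (2.11% of all genes) and *Cxcl1* and *Cxcl2* were lower (3.11% of all genes).

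Of the genes higher with sh3, *Chil1* had the smallest p (log2 fold change 1.53, SE 0.28). It encodes a chitinase-like protein secreted by epithelium and macrophages (chr1:134182156-134190031), and it was at 3.41, 2.68 and 3.79 CPM in the controls and 10.999, 10.2 and 7.42 CPM with sh3. Every sh3 tumor lay above the highest control, which was a condition of the choice of this gene. In the sh2 tumors it was at 3.83, 4.203 and 5.88 CPM, and sh3 and sh2 differed by 1.05 on the log2 scale (adjusted p = 0.673 from edgeR).

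Genes of small multigene families made up several of the rest. *Ly6i*, a membrane-anchored protein of the Ly6 family, was at 1.79, 2.43 and 2.43 CPM in the controls and 7.58, 4.18 and 6.60 CPM with sh3. *Apol10b* and *Apol7c*, of the apolipoprotein L family, had log2 fold changes of 2.31 (SE 0.56) and 1.40 (SE 0.36). *Apol10b* was at 1.96, 2.93 and 3.91 CPM against 21.6, 4.98 and 17.0 CPM, so that sh3 tumor 2 was close to the controls. Members of these families have near-identical copies, and their counts are uncertain for that reason. *Ctla2b*, a protease inhibitor of the cathepsin propeptide family, was at 13.3 to 15.6 CPM against 20.3 to 28.0 CPM.

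Chaperone genes were among those with the smallest p. *Dnaja1*, a co-chaperone of HSP70, was at 104, 102 and 93.2 CPM in the controls and 140.1, 159.7 and 144 CPM with sh3 (log2 fold change 0.57, SE 0.13). *Cacybp*, a partner of HSP90 and of a ubiquitin ligase, was at 117, 137 and 127 CPM against 183, 215 and 194 CPM. In the list of the unfolded protein and heat shock response, 2 of 15 genes were higher with p under 0.05 (2.11% of all genes), *Dnajb1* (0.53, SE 0.19) and *Dnajb9* (0.44, SE 0.18). The main chaperone of the endoplasmic reticulum, *Hspa5*, had a log2 fold change of −0.03 (SE 0.21). The median of this list was 0.26, and 0.10 with the length trend removed.

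Genes of ribosomes and of small nucleolar RNAs came next, and these groups were formed after their values were seen. SnoRNA host genes carry, in their introns, the small RNAs that guide the modification of ribosomal RNA, and their spliced products are rapidly lost. *Snhg6* was at 33.4, 38.0 and 30.3 CPM in the controls and 57.8, 70.8 and 52.5 CPM with sh3 (log2 fold change 0.83, SE 0.17). *Gas5*, another of them, was at 264.2, 293 and 245 CPM against 576, 463 and 343 CPM, and *Snhg1* at 136, 149 and 127 CPM against 215, 220 and 183 CPM. Of 11 such genes tested, 5 were higher in every sh3 tumor (6.09% of all genes), and each of these was separate by a gap wider than the range of its controls except *Snhg8* and *Snhg7*.

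Many genes of this class begin their transcripts with a C and a run of pyrimidines. Windows of 30 bases around the annotated start of 3 of the genes named here are shown to let this start be seen. They were taken from RefSeq (GRCm38.p6), with 15 bases before the start and 15 from it on, and capitals mark a C followed by at least 4 bases that are each C or T, within 5 bases of the start.
Gas5 (chr1:161035151-161035180, + strand): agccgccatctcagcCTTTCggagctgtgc
Snhg8 (chr3:123508322-123508351, − strand): gcaccgttcagaagtCTCTTTggctgcgat
Rpl12 (chr2:32961697-32961726, + strand): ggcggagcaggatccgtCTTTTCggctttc
Gas5 has a further annotated start without such a run, and the windows of *Snhg1*, *Eef1b2*, *Rps16* and *Rpl22* hold none within 5 bases of the start. Of 74 annotated starts of ribosomal protein genes, 41.9% had such a run within 5 bases of the start, and of 10 starts of snoRNA host genes 70.0% did, against 18.3% of all 32851 starts in the table. These shares describe the annotation and not the tumors.

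Ribosomal protein genes had a median log2 fold change of 0.59, and of 0.31 without sh3 tumor 2. Of 83 tested, 78 had a higher mean with sh3, 45 lay above all controls (6.09% of all genes) and 34 had p under 0.05 (2.11% of all genes) with 0 lower ones. Without control tumor 3, 2 had p under 0.05, with a median of 0.497. Over all genes, 344 to 2354 had p under 0.05 in the fits with 1 tumor left out. *Rpl12*, of the large subunit, was at 183, 169 and 145 CPM in the controls and 252, 252 and 233 CPM with sh3, and *Rpl23a* at 58.4, 56.9 and 50.4 CPM against 77.3, 98.4 and 82.8 CPM. *Eef1b2*, an elongation factor subunit of the same translation machinery, was at 638, 655 and 576 CPM against 1058, 990 and 853 CPM. *Nip7*, which acts in the assembly of the large subunit, was at 56.0 to 57.9 CPM in the controls and 77.8 to 102 CPM with sh3.

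These genes are short, and gene length moved with the result. Over 10 length classes of all genes, the median log2 fold change was 0.26 in the shortest and −0.05 in the longest. The trend was strongest in sh3 tumor 2, with medians of 0.48 and −0.31 from the control mean, weaker in sh3 tumor 3 (0.18 and −0.10) and in the other direction in sh3 tumor 1 (−0.08 and 0.17). Of the 83 ribosomal protein genes, 74 were in the 2 shortest classes. With the length trend of each tumor removed, their median was 0.33 with 24 genes at p under 0.05, and that of the snoRNA host genes was 0.40 with 3. Ribosomal protein genes also share reads with many processed copies in the genome, which makes single values uncertain.

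**Figure D5:**
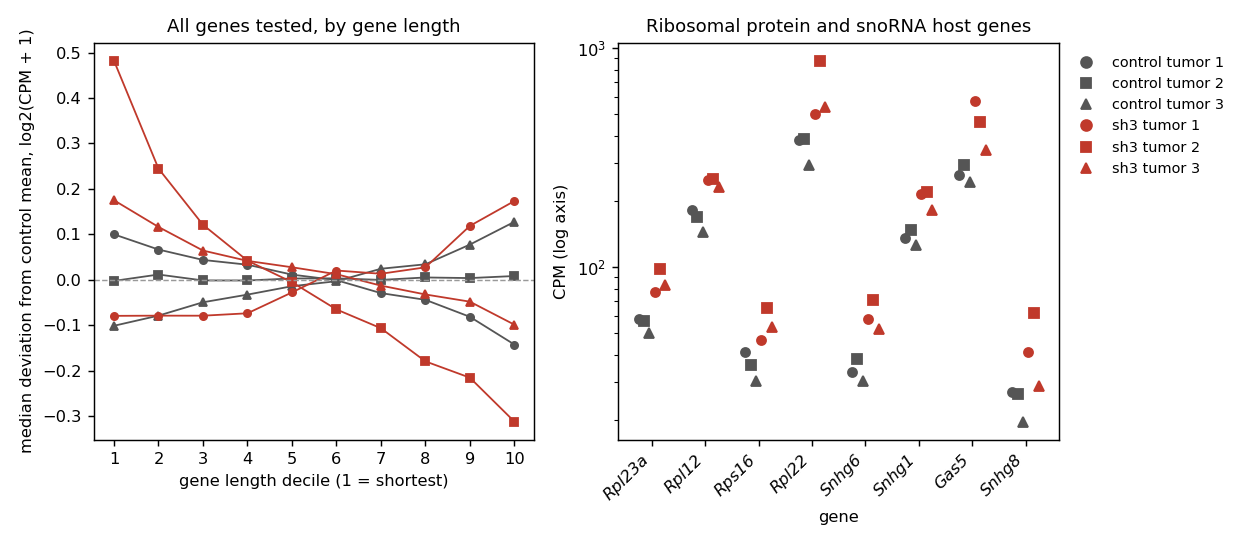
Left, median deviation from the control mean on the log2(CPM + 1) scale (y axis) of all genes tested in each of 10 gene length classes (x axis, 1 is the shortest), 1 line per tumor. Right, level (CPM, log axis) of 4 ribosomal protein and 4 snoRNA host genes in each tumor. Sh3 tumor 2 (red square) runs from 0.48 to −0.31 on the left, and on the right every sh3 tumor lies above every control.

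The medians of proliferation, glycolysis and ERK output genes were small in RNA of the whole tumor, in which carcinoma cells were not measured apart. For 22 proliferation genes the median log2 fold change was 0.07, and for 18 genes of glycolysis and lactate it was 0.10. Both lists had 0 genes at p under 0.05 (5.22% of all genes). Sh3 tumor 1 was the highest of the 6 in 11 of the 18 glycolysis genes, against 3947 of the 13604 genes that averaged 1 CPM or more. Their summed level was 5034 to 6692 CPM in the controls and 8094, 5393 and 5745 CPM with sh3. With 1 tumor left out, the glycolysis median was between −0.074 and 0.187. Of 18 genes that report ERK activity, *Dusp6*, a phosphatase induced by ERK, was at 205, 214 and 252 CPM in the controls and 340, 252 and 312 CPM with sh3 (log2 fold change 0.43, SE 0.17). It was the single gene of this list with p under 0.05 (2.11% of all genes were higher at this p). The list's median was 0.08 with all tumors and −0.26 without sh3 tumor 1. *Trp53inp1*, a target of p53, was at 125, 131 and 109 CPM against 180, 133 and 213 CPM. The p53 list had a median of 0.18, and between 0.040 and 0.31 with 1 tumor left out. Of its 12 genes 10 had a higher mean with sh3, and 1 of these had p under 0.05 (2.11% of all genes). In 3, *Trp53inp1*, *Mdm2* and *Bbc3*, all sh3 tumors lay above all controls (6.09% of all genes). *Mdm2* was at 2379, 2194 and 2129 CPM against 2710, 2560 and 3519 CPM.

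Squamous genes outside the keratins were lower in part. *Grhl1*, a transcription factor of epidermal differentiation, was at 30.2, 24.3 and 17.6 CPM in the controls and 3.79, 14.3 and 13.0 CPM with sh3, and *Ovol1* at 9.90, 14.8 and 8.11 CPM against 7.81, 4.53 and 6.73 CPM. Neither overlapped between the groups, while *Sox2* and *Klf4* did. Of the 17 squamous regulators tested, 3 lay below all controls (5.97% of all genes). Genes of the cornified envelope, the hardened shell of squamous cells, had a lower mean with sh3 in 10 of 10 cases (median −1.56). This rested on control tumor 1: *Dmkn* was at 30.0 CPM there and at 0.216 to 0.693 CPM in the other 5 tumors, and without it the median was −0.31.

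Relatives of *Tmprss11b* in the same gene cluster were also compared. *Tmprss11f* (chr5:86521226-86632424) had 71 counts over the controls and 15 over the sh3 tumors, a ratio of 0.233 (0.124 to 0.411). *Tmprss11e* (chr5:86705186-86745807), at 147 TPM in the controls the most abundant of the cluster per length, was at 146, 211 and 274 CPM against 145, 146 and 125 CPM, a log2 fold change of −0.60 (SE 0.24). For *Tmprss11e*, control tumor 1 was level with sh3 tumors 1 and 2. The inhibitor *Spint2* was at 296, 253 and 224 CPM against 330, 327 and 308 CPM.

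Compared directly with the sh2 tumors in a fit of all 9, the sh3 tumors differed in 0 of 14725 genes at an FDR under 0.05 (lowest FDR 0.673), with p under 0.05 for 1057 genes (7.18%), 518 higher and 539 lower (3.66%). DESeq2's Wald test called 46 genes and the likelihood ratio test 14. The log2 difference of *Col1a2* was −0.97 (SE 0.27, adjusted p = 0.673 from edgeR), with sh2 tumors at 1017, 846 and 1366 CPM, all above the sh3 tumors. Of 18 collagens tested here, 8 were lower in every sh3 than in every sh2 tumor, where 4.62% of all genes were.

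Lists of immune genes were also compared with sh2. All 20 T cell genes had a higher mean in the sh3 tumors (median log2 difference 1.09), 8 with p under 0.05 (3.52% of all genes), and in 4 every sh3 tumor lay above every sh2 tumor (5.51% of all genes). *Icos* was at 2.74, 1.01 and 1.92 CPM in the sh2 tumors, below the sh3 tumors, and differed by 1.51 (SE 0.39, adjusted p = 0.673 from edgeR). For the 12 class I genes the median difference was 0.82 with 9 at p under 0.05 (3.52% of all genes), but 0 were separate. The sh2 tumors themselves lay below the controls: 19 of 20 T cell genes and 12 of 12 class I genes had lower means with sh2. The medians of sh2 against control were −0.51 and −0.41, with 0 genes of either list at p under 0.05. *Tmprss11b* itself did not separate the 2 hairpins, with a difference of 0.53 and an adjusted p of 0.858 from edgeR.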

How the data were processed

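RNA from 9 whole tumors was sequenced as poly-A libraries (stranded mRNA kit), and 6 tumors enter the main comparison. Per the labels, the authors used FastQC, STAR 2.5.3a, featureCounts and edgeR with the mm10 build, and the strand setting of the counting is not given in the sources used here. The deposited counts are raw reads per gene. The deposited CPM signal equals each count divided by the TMM-scaled library, and the authors also gave TPM values, used only to compare levels between genes. The 10 columns of the authors' own comparisons (fold changes and p-values) were not used.

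Counts were tested with edgeR 4.0.16 in R 4.3.3 (filterByExpr, TMM, robust quasi-likelihood test, Benjamini-Hochberg). The comparison with sh2 used all 9 tumors. The scripts were tested on simulated data, and Python 3.11.15 with scipy 1.17.1 gave the exact test and the intervals. Named genes were *Tmprss11b*, the 15 genes per direction with the smallest p among those with separate groups and a mean of at least 1 CPM, and 4 genes per list; other genes named were chosen after their values were seen. Members and lists were chosen with earlier results of these data known, and 2 of 38 lists were added after values were seen. Symbols were matched to RefSeq, 18299 directly and 1070 as synonyms. The labels number the libraries of a group as replicates, each hairpin is 1 transduced line, and p-values measure the spread between tumors of that line. The 14 alternatives are another scaling, test, filter, set of tumors, replicate block, tumors left out in turn and, added after seeing the data, removal of the gene length trend. DESeq2 1.42.0 gave the Wald test.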

Additional observations from a re-analysis of the deposited data

How the results depend on the processing

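No gene had an FDR under 0.05 by the quasi-likelihood test. DESeq2's Wald test gave 45 and edgeR's likelihood ratio test 20 against control, and 46 and 14 against sh2. Against control, the number of genes with p under 0.05 was 756, and between 344 (without control tumor 1) and 2354 (without sh3 tumor 1) with 1 tumor left out. All 30 genes named by p kept their sign in every alternative that tested them (13 for *Cyp2e1*, *Thrsp* and *Cfd*, 14 for the others). They were chosen for separate groups, so their sign could hardly change, and this does not measure their stability. The medians of 22 of 38 lists, which were not chosen in this way, kept their sign in all 14. *Tmprss11b* had log2 fold changes between −2.86 and −2.07 (FDR 0.111 to 1.0). With the replicate number as a replicate block, 399 genes had p under 0.05, 0 had an FDR under 0.05, and the median of the membrane serine proteases was −0.33. The deviations of tumors with the same number had correlations of −0.28, −0.02 and −0.14, so the numbers do not pair the tumors.

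With at least 10 counts in every tumor, which removes genes near 0, the medians were −0.78 for the cornified envelope, 0.67 for B cells and −0.29 for adipocytes. With no filter they were −0.72 for membrane serine proteases, −2.53 for the cornified envelope and −1.52 for adipocytes. With the length trend removed they were 0.10 for the unfolded protein response, −0.71 for collagens and 0.40 for snoRNA host genes. With 1 tumor left out, the medians ranged from −0.60 to 0.050 for membrane serine proteases, −1.97 to −0.31 for the cornified envelope, −0.50 to −0.085 for the desmosome, −0.22 to 0.10 for simple epithelium and −0.42 to −0.16 for epithelial to mesenchymal transition. They ranged from −0.26 to 0.26 for ERK output, −0.58 to 0.075 for hypoxia, 0.064 to 0.31 for the unfolded protein response and −0.44 to −0.24 for the clock. In immune lists they ranged from −1.02 to 0.22 for neutrophils, 0.50 to 1.59 for B cells, −0.035 to 0.51 for dendritic cells, −1.14 to −0.071 for mast cells, −0.35 to 0.27 for chemokines and −0.31 to 0.029 for cytokines. They ranged from 0.29 to 0.82 for T cells, 0.080 to 0.90 for MHC class II, −0.60 to 0.41 for the interferon response, −0.30 to 0.53 for macrophages and 0.31 to 0.72 for ribosomal proteins. In stromal lists they ranged from −1.14 to −0.85 for collagens, −0.58 to −0.21 for endothelium, −1.50 to −1.07 for adipocytes and −3.07 to 1.14 for skeletal muscle. The cause of these changes was not tested. At these depths genes under 3 counts in a tumor could not be told from 0.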
